A study of Mus musculus with 3 samples.

Results

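All 37 RNAs encoded by the mouse mitochondrial genome were followed in a map of Tra2β contacts in the testis. They are the genes of GENCODE M39 on chrM whose symbols start with mt-, 2 rRNAs, 22 tRNAs and 13 mRNAs, out of 78289 annotated genes. Tra2β regulates splicing in the nucleus by binding RNA directly. The map was made by iCLIP, in which proteins are joined to RNA in contact with them by ultraviolet light and the end of each cDNA marks the crosslinked nucleotide. The 3 libraries are biological replicates of 1 group, total testis of adult wild type mice with mixed cell types, precipitated with a polyclonal antibody against Tra2b. There was no input, IgG or knockout control among the libraries analysed here, so contact by Tra2β and recovery of abundant RNA without contact cannot be told apart in any value below.

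Mitochondrial DNA is transcribed from both strands as long RNAs that are cut apart, mostly by release of the tRNAs that lie between the other genes. The rRNAs of the mitochondrial ribosome and all but 1 of the mRNAs come from transcription that reads the heavy strand, and their sequence is that of the plus strand of the reference genome. The mRNAs encode subunits of the respiratory chain and of ATP synthase, which germ cells use together with a large set of subunits encoded in the nucleus.

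The libraries held 348033, 619571 and 488719 crosslinks (unique cDNAs) in replicates 1, 2 and 3. Exons of annotated genes held 38.8%, 24.1% and 49.96% of them. All 6 spermatid markers and all 5 spermatocyte markers had crosslinks in every library, with summed levels of 300 to 2638 and 307 to 1140 counts-per-million (CPM, crosslinks scaled to the library total), lowest in replicate 2. Of 8 markers of other tissues, 3 had crosslinks in replicate 2 and none in the other two libraries. Replicate 2 stood apart in what follows, so values are given per library. Intervals are 95% Clopper-Pearson intervals and cover counting error only.

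Mitochondrial RNAs took 5506, 3592 and 6817 crosslinks on their own strand in replicates 1, 2 and 3. These were 1.58% (1.54 to 1.62), 0.580% (0.561 to 0.599) and 1.39% (1.36 to 1.43) of the libraries, a mean of 1.19% ± 0.533 (SD, n = 3). The share was lowest in replicate 2. As a share of exonic crosslinks, a denominator chosen after seeing the data, it was 4.08%, 2.41% and 2.79%. Many of the crosslinked nucleotides carried several crosslinks, and counting each position once gave a mean share of 0.345% of the positions.

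rRNA held nearly all of these crosslinks, with 94.3%, 97.7% and 91.5% of them in replicates 1, 2 and 3. Per length, rRNA had 5880, 2232 and 5031 CPM per kb, tRNA 239, 65.6 and 303, and mRNA 47.8, 3.13 and 64.3. Over whole RNAs the order of the classes was the same in every library. rRNA exceeded mRNA by 123-fold (106 to 143), 714-fold (471 to 1140) and 78.2-fold (70.3 to 87.2), with the largest ratio in replicate 2, where mRNA rested on 22 crosslinks. tRNA exceeded mRNA by 5.01-fold (3.96 to 6.31), 21.0-fold (12.7 to 35.9) and 4.71-fold (3.96 to 5.58). Without the highest window of 30 nt of each gene, which is a large part of a tRNA, tRNA stood at 0.996, 16.4 and 1.17 times mRNA, so its excess in replicates 1 and 3 rested on these windows. These ratios count all nucleotides, including stretches whose sequence also occurs in nuclear chromosomes, described further on.

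**Figure D1:**
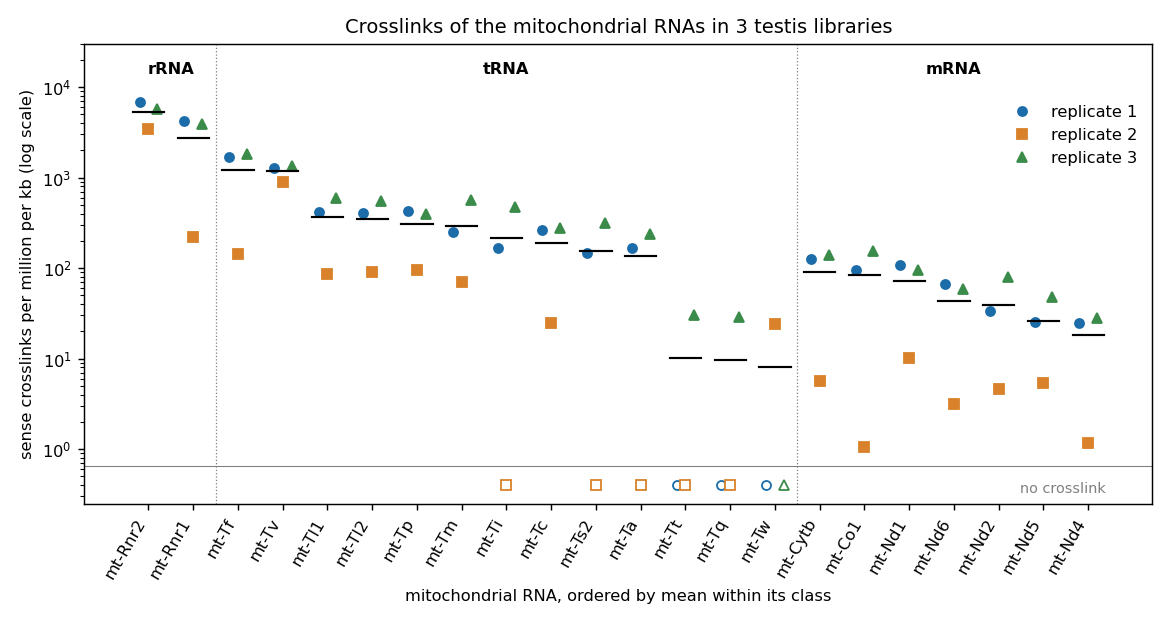
Sense CPM per kb (log scale) of the 22 mitochondrial RNAs with any crosslink, ordered by mean within rRNA, tRNA and mRNA. Points are the 3 libraries, black bars their mean, and open points below the grey line a count of 0. Both rRNAs lie above the tRNAs by their means, and replicate 2 is the lowest point of each RNA with at least 20 crosslinks in total.

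mt-Rnr2, the large rRNA of the mitochondrial ribosome (chrM:1094-2675, plus strand), had 3791, 3378 and 4421 crosslinks and mt-Rnr1, the small rRNA (chrM:70-1024, plus strand), had 1401, 131 and 1817. Neither had an antisense crosslink in any library. Per length, mt-Rnr2 reached 5350 ± 1749 CPM per kb (SD, n = 3) and ranked 2 among 5032 genes with at least 20 exonic crosslinks, and mt-Rnr1 reached 2777 ± 2219 and ranked 5. Of 7 genes for other structural RNAs, Rn7sk, which restrains transcription elongation, lay between the means of the 2 rRNAs with 4441 ± 822 CPM per kb. Rn18s-rs5, the cytosolic small rRNA, lay below both with 1775 ± 391. The other five had 62.9 CPM per kb or less, and the median of all ranked genes was 5.02. The large rRNA exceeded the small one per length by 1.63-fold (1.54 to 1.74) in replicate 1 and 1.47-fold (1.39 to 1.55) in replicate 3, but by 15.6-fold (13.1 to 18.7) in replicate 2. With each position counted once the ratios were 1.19 and 1.102 in replicates 1 and 3 and 4.15 in replicate 2. The wide SD of mt-Rnr1 came from replicate 2, whose 221 CPM per kb compared with 4215 and 3893 in replicates 1 and 3.

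Crosslinks covered the rRNAs broadly rather than at a few sites. In mt-Rnr2, 58.2%, 43.4% and 58.8% of nucleotides had at least 1 crosslink, and in mt-Rnr1 48.9%, 10.5% and 53.4%. The 20 leading nucleotides of mt-Rnr2 held 18.5%, 28.0% and 19.7% of its crosslinks, and 5 nucleotides were among the leading 20 in all libraries. For mt-Rnr1 the shares were 24.7%, 36.6% and 28.5%, with 7 shared nucleotides. Over windows of 30 nt, replicates 1 and 3 ordered the rRNA alike, with Spearman's rho 0.933 over 31 windows of mt-Rnr1 and 0.911 over 52 windows of mt-Rnr2. Against replicate 2 rho was between 0.48 and 0.52 in both rRNAs. Neighbouring windows share a sequence and the number of crosslinks of the library, so these values are descriptions.

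The 3 windows of 30 nt with the highest mean CPM in each rRNA are shown to give the sequence at the hot spots. All lie on the plus strand of GRCm39, they are printed as DNA, and the capital letter is the nucleotide with most crosslinks in the window.
mt-Rnr1 chrM:338-367: Aactaattatcttcggcgtaaaacgtgtca
mt-Rnr1 chrM:786-815: ctacattttcttataaaagaacatTactat
mt-Rnr1 chrM:435-464: caataacgaaagtaattctagtcatttatA
mt-Rnr2 chrM:1833-1862: taaataatccacctataacttCtctgttaa
mt-Rnr2 chrM:1131-1160: actattatataaatcaaaacatttatcctA
mt-Rnr2 chrM:2631-2660: atctaaataaaatataTacgtacaccctct

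In mt-Rnr1 the window starting 269 nt into the RNA had 92, 11 and 140 crosslinks, 42, 4 and 61 of them at its first nucleotide, an A. The windows 717 and 366 nt into the RNA had 85, 2 and 142 and 84, 8 and 130 crosslinks. In mt-Rnr2 the window near the 5′ end, 38 nt into the RNA, had 203, 279 and 215 crosslinks. The window 740 nt into the RNA had 166, 397 and 200, and 66.7% of its nucleotides start a run of 31 nt that occurs once in the genome, against 100% in the other five windows. The window near the 3′ end, 1538 nt into the RNA, had 189, 58 and 379 crosslinks, 63, 12 and 137 of them at a single T. The upstream windows of mt-Rnr2 stayed high in replicate 2, at 450 CPM against 583 and 440 and at 641 CPM against 477 and 409 in replicates 1 and 3, whereas the 3′ window and all 3 windows of mt-Rnr1 were lowest there. The single leading nucleotide of both rRNAs was an A at position 1321 of chrM, 228 nt into mt-Rnr2, with 90, 100 and 70 crosslinks.

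Whether a peak in one library was also a peak in the others was tested by choosing the highest window of 30 nt in 1 library and comparing it with the rest of the RNA in the other libraries summed, by a two-sided exact binomial test with Benjamini-Hochberg adjustment over 896 genes. mt-Rnr1, mt-Rnr2 and mt-Tv had enough crosslinks. The windows of both rRNAs passed in each of the 3 choices and those of mt-Tv in none, so 2 of 3 mitochondrial RNAs were called against 32.6%, 25.4% and 27.0% of all genes. The excess was modest. In mt-Rnr1 the window held 1.56, 1.76 and 1.86 times the density of the rest, and in mt-Rnr2 2.58, 1.52 and 1.84 times, where the median over all genes was 3.41, 2.87 and 3.16. The summed call can hide a library, since the windows chosen in replicate 3 stood at 0.478 times the rest of mt-Rnr1 and 0.904 times the rest of mt-Rnr2 in replicate 2. With windows of 10 nt, mt-Tv was called as well for the choices in replicates 2 and 3, so that all 3 RNAs passed there. With windows of 50 nt, for which mt-Tv was not tested, 1 of 2 was called for the choices in replicates 2 and 3. With each position counted once none was called for the choice in replicate 2 and 1 for that in replicate 1.

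**Figure D2:**
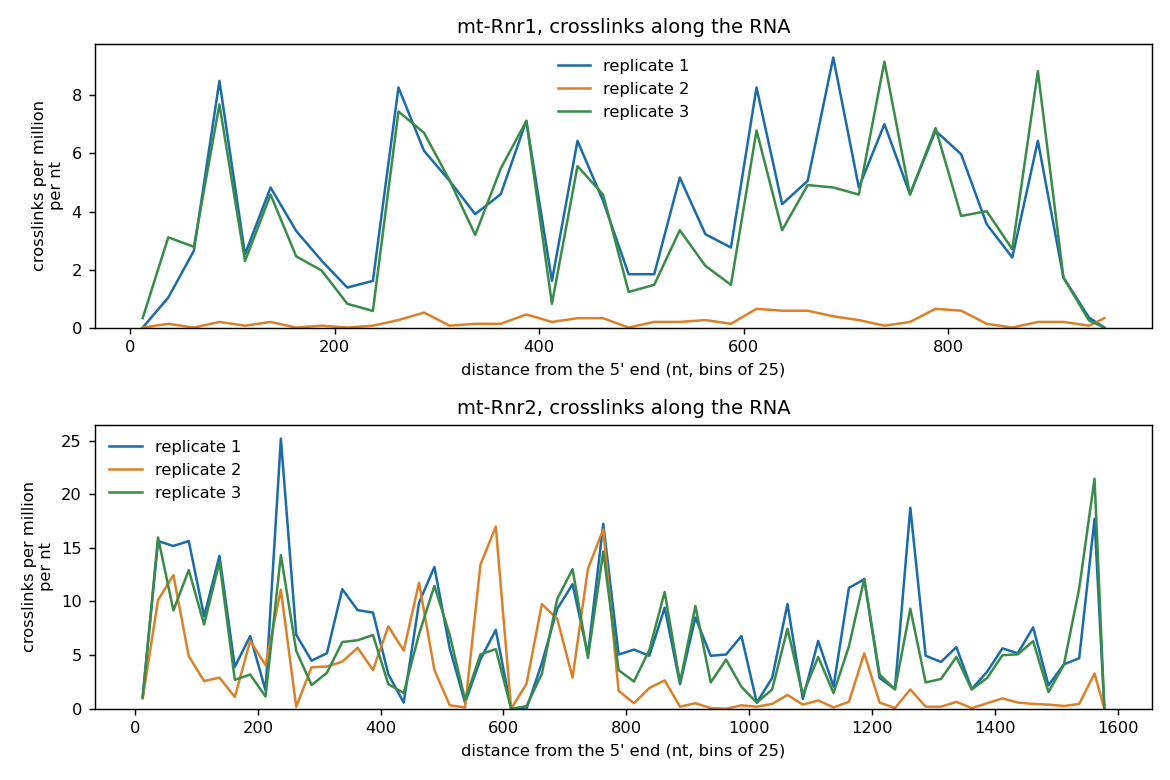
CPM per nt along mt-Rnr1 (top) and mt-Rnr2 (bottom) in bins of 25 nt from the 5′ end, one line per library. Replicate 2 runs near the bottom along the whole of mt-Rnr1 and along the last 791 nt of mt-Rnr2. In the first 791 nt of mt-Rnr2 it runs far below the other lines in some bins and far above them in others.

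Replicate 2 differed from the others by stretches of the primary transcript and not by a common factor. In mt-Rnr2 the first 791 nt had 2165, 2976 and 2446 crosslinks and the last 791 nt 1626, 402 and 1975. The first stretch thus held 57.1%, 88.1% and 55.3% of the crosslinks of the RNA. Relative to library totals, replicate 2 stood at 0.772 (0.730 to 0.816) of replicate 1 in the first stretch and at 0.139 (0.124 to 0.155) in the second. Against replicate 3 the ratios were 0.960 (0.909 to 1.01) and 0.161 (0.144 to 0.179). Within the first stretch replicate 2 was uneven. It had 857 CPM against 1784 and 1531 in replicates 1 and 3 in chrM:1094-1251. In chrM:1726-1884 it had 1364 against 1247 and 1181. Runs that also match chromosome 10 lie in this stretch. In chrM:1520-1578 replicate 2 had 309 crosslinks against 146 and 162, and in chrM:1674-1790 it had 296 against 107 and 133. Further such runs are chrM:1593-1625, chrM:1627-1672, chrM:1792-1825 and chrM:1842-1881. All of them match a single stretch of chromosome 10, between 95913387 and 95913748, with short gaps between the runs. The hot spot window chrM:1833-1862 overlaps the last run.

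The neighbouring tRNA for valine, mt-Tv, which in human cells is also a structural RNA of the mitochondrial ribosome, showed a similar break within its 69 nt. Its first 34 nt had 21, 5 and 23 crosslinks and its last 35 nt, which adjoin mt-Rnr2, had 10, 33 and 22. Replicate 2 stood at 0.134 (0.0394 to 0.364) of replicate 1 in the first stretch and at 1.85 (0.892 to 4.22) in the last. Upstream, the ratio was 0.0410 (0.0299 to 0.0550) in the first 477 nt of mt-Rnr1, 0.0628 (0.0494 to 0.0788) in its last 478 nt and 0.0843 (0.0292 to 0.2) in mt-Tf. Over whole stretches the level of replicate 2 was thus near the other libraries from the 3′ part of mt-Tv to the middle of mt-Rnr2. It was several-fold lower on both sides. Replicate 3 over replicate 1 lay between 0.780 and 1.57 in all of these stretches. The stretches were chosen after seeing the data, and the cause of the break was not tested.

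**Figure D3:**
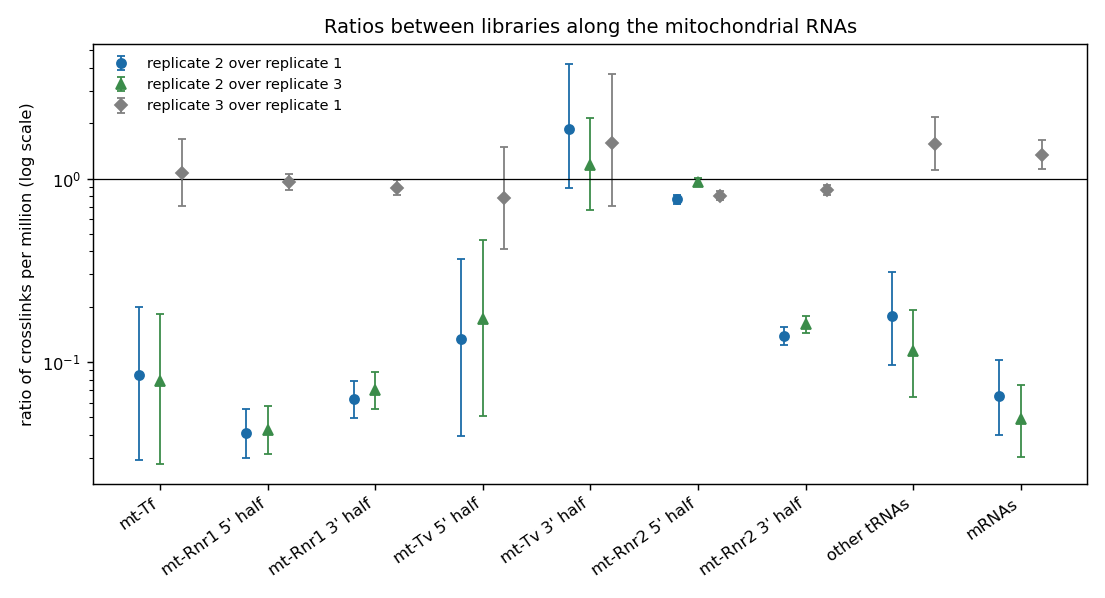
Ratio of CPM between libraries (log scale) for stretches of the mitochondrial RNAs in the order of the genome, with the other 20 tRNAs and the 13 mRNAs last. Bars are 95% exact binomial intervals. The ratios of replicate 2 to replicates 1 and 3 are near 1 only in the 3′ stretch of mt-Tv and the 5′ stretch of mt-Rnr2, and replicate 3 over replicate 1 is between 0.780 and 1.57 throughout.

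Of 16 mitochondrial RNAs with at least 20 crosslinks, 11 were lower in replicate 2 than in replicate 1 and 15 lower than in replicate 3 (two-sided exact binomial test on library totals, Benjamini-Hochberg over 5032 genes). Over all genes 25.1% and 42.6% were lower. No mitochondrial RNA was higher in replicate 2 in either pair, where 2.70% and 4.01% of all genes were. mt-Tv was not called in either pair, with ratios of 0.689 (exact binomial test, adjusted p = 0.324) and 0.666 (adjusted p = 0.145). Replicate 2 was also lower over the genome, with a median ratio to replicate 1 of 0.562 over 5006 genes and a 5th percentile of 0.113. mt-Rnr1 at 0.0525 (0.0436 to 0.0629) lay below that percentile and mt-Rnr2 at 0.501 near the median. Of the mRNAs with crosslinks, mt-Nd5 at 0.211 and mt-Nd2 at 0.140 lay above that percentile. The others lay below it, mt-Nd1 at 0.0936, mt-Nd4 and mt-Nd6 at 0.0468, mt-Cytb at 0.0449 and mt-Co1 at 0.0110. The split depended on the library compared. Against replicate 3 the 5th percentile was 0.0771, with mt-Nd5 at 0.110 and mt-Nd1 at 0.105 above it. There mt-Nd2 at 0.0592 lay below it, as did mt-Nd4, mt-Nd6, mt-Cytb and mt-Co1. With exonic crosslinks as the denominator, chosen after seeing the data, 8 and 10 RNAs were lower, and mt-Rnr2 turned to higher in replicate 2 than in replicate 3. Between replicates 3 and 1, mt-Co1 was higher in replicate 3 and mt-Rnr2 lower, against 8.07% and 0.258% of all genes. mt-Co1 was no longer called under any other denominator or with positions counted once, and mt-Rnr1 was then called lower as well. These tests compare libraries and cover counting error only.

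Among the tRNAs, 13 of 22 had crosslinks and 7 had them in every library. mt-Tf, the tRNA for phenylalanine at the start of the transcript, had 40, 6 and 60 crosslinks, 1213 ± 929 CPM per kb (SD, n = 3). mt-Tv had 31, 38 and 45, 1171 ± 246 CPM per kb. They ranked 10 and 11 among all genes per length, and of the pair mt-Tf alone was low in replicate 2. The tRNAs for leucine followed, mt-Tl1 with 11, 4 and 22 crosslinks (369 ± 261 CPM per kb) and mt-Tl2 with 10, 4 and 19 (348 ± 234). mt-Tp, the tRNA for proline and the highest of the minus strand, had 10, 4 and 13 (307 ± 183). The drop from mt-Tv to mt-Tl1 was larger than the SD of either, and all other differences between neighbours in this order were within the spread between libraries. The other 8 tRNAs with crosslinks ranged from 8.03 to 294 CPM per kb, and mt-Tq, mt-Tw and mt-Tt among them rested on 1 crosslink each.

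Inside 3 of the tRNAs most or many crosslinks fell on 1 nucleotide near the middle. In mt-Tf the A 36 nt from the 5′ end had 17, 3 and 36 crosslinks, 52.8% (42.9 to 62.6) of the total of 106. In mt-Tp the G at 34 nt had 8, 2 and 11, 77.8% (57.7 to 91.4) of 27. In mt-Tl2 the G at 36 nt had 4, 1 and 9, 42.4% (25.5 to 60.8) of 33. The 3 bases just before these nucleotides are GAA, UGG and UAG, which are the anticodons that read codons for phenylalanine, proline and leucine. In each of these tRNAs the leading nucleotide was therefore the one that follows the anticodon. In the other tRNAs with at least 20 crosslinks (mt-Tv, mt-Tl1, mt-Ti and mt-Tm) the leading nucleotide held between 17.9% and 25% of the crosslinks and had no such common place, being the last nucleotide in mt-Tv. The leading nucleotides were picked as the highest of each tRNA, so their shares carry no test. Why cDNAs ended at these nucleotides was not tested. The stretches are printed to show the anticodon and, in capitals, the nucleotide after it, in the direction of the tRNA, from GRCm39.
mt-Tf chrM:22-50 plus strand: agcaaagcactgaaAatgcttagatggat
mt-Tp chrM:15375-15403 minus strand: aataccagctttggGtgctggtggtgggg
mt-Tl2 chrM:11692-11720 plus strand: tccattggtcttagGaaccaaaaaccttg

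Among the mRNAs, 7 of 13 had crosslinks, all of them in every library. mt-Cytb, the cytochrome b of complex III, had 50, 4 and 78 crosslinks (90.2 ± 73.6 CPM per kb, SD, n = 3). mt-Co1, the catalytic subunit of complex IV, had 51, 1 and 117 (83.6 ± 77.6), although only 35.4% of its nucleotides start a run of 31 nt found once in the genome. mt-Nd1, a membrane subunit of complex I, had 36, 6 and 45 (71.5 ± 53.5). The low value was that of replicate 2 each time. mt-Nd6, the complex I subunit encoded on the opposite strand, had 12, 1 and 15 (42.9 ± 34.6), and mt-Nd2 had 12, 3 and 40 (38.9 ± 37.4). Per whole length mt-Nd5 (26.3 ± 21.5) and mt-Nd4 (18.1 ± 14.8), 2 further membrane subunits of complex I, were the lowest mRNAs with crosslinks. Only 36.2% of mt-Nd4 nucleotides start a run of 31 nt found once in the genome, against 83.2% of those of mt-Nd5. Levels per unique length were not compared between single mRNAs. The SDs were large against the means, and neighbours in this order differed by less than the spread between libraries. In the 5 mRNAs with at least 80% unique nucleotides, cut into 3 equal parts from the 5′ end, the parts held 29.4%, 34.1% and 36.5% of crosslinks in replicate 1 and 34.8%, 32.1% and 33.03% in replicate 3. No end of the coding sequence stood out. Replicate 2 had 20 crosslinks in these RNAs and gives no such profile.

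Exon density was compared with the mean over all exons of the library by a two-sided exact binomial test, adjusted over 5032 genes. Of 16 mitochondrial RNAs tested, 11 were called above the mean in all libraries and none below, against 35.1% and 0.219% of all genes. The 11 were both rRNAs, 6 tRNAs (mt-Tf, mt-Tv, mt-Tl1, mt-Tl2, mt-Tm and mt-Tp) and 3 mRNAs (mt-Nd1, mt-Nd5 and mt-Cytb). For an RNA as short as a tRNA a few crosslinks suffice for a call. In replicate 2, mt-Tm, of 69 nt, passed on 3 crosslinks (exact binomial test, adjusted p = 0.000155). The tRNA calls were thus largely set by the minimum of 20 crosslinks and the short length. The share of all genes covers genes of all lengths and is no like comparison for them. With 50 crosslinks as the minimum 7 were called, and without replicate 2 all 16 were called, against 47.1% of all genes. Sense was called above antisense in every library (exact binomial test, adjusted) in 5 of the 16. These were mt-Tf, mt-Rnr1, mt-Tv, mt-Rnr2 and mt-Nd1, against 50.2% of 5834 genes tested. Antisense was called above sense in none, against 1.49%. A call needs enough crosslinks in each library. In replicate 2, mt-Tl1, mt-Tl2, mt-Tp and mt-Cytb had 4 sense and 0 antisense crosslinks and were not called (exact binomial test, adjusted p = 0.155). Without replicate 2 sense was called above antisense in 12 of the 16, against 64.3% of all genes.

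Genes at 0 lay where the sequence is not unique to the mitochondrial genome. In all libraries 15 of the 37 RNAs had no crosslink. They were the mRNAs mt-Co2 and mt-Co3 of complex IV, mt-Atp6 and mt-Atp8 of ATP synthase and mt-Nd3 and mt-Nd4l of complex I, and the tRNAs mt-Tn, mt-Ty, mt-Ts1, mt-Td, mt-Tk, mt-Tg, mt-Tr, mt-Th and mt-Te. In 12 of the 15, fewer than 10% of nucleotides start a run of 31 nt that occurs once in GRCm39, and no RNA with so little unique sequence had a crosslink. The other three, mt-Tg, mt-Tr and mt-Te, had 42.6%, 17.6% and 11.6% unique nucleotides. Conversely, all 12 RNAs with at least 90% unique nucleotides had crosslinks.

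The longest stretch of chrM with no crosslink on either strand in any library ran from 6391 to 10998, 4608 nt that hold 11 whole genes. It coincides with chrM:6394-11042, which matches chr1:24650616-24655265 in 3 exact runs, the longest of 3067 nt. The nuclear copy also had 0 crosslinks in all libraries. Within the matching part of chrM the first crosslink appeared 44 nt before its end, at 10999, and 5 crosslinks fell there in all. mRNA nucleotides with unique sequence had 31.1, 3.36 and 58.1 crosslinks per kb, and those with copies 0.741, 0.371 and 2.04. For tRNAs the values were 158, 75.7 and 280 per kb on unique nucleotides and 0, 1.41 and 0 on copied ones. The sources used here do not give the treatment of reads that match several places. The counts of 0 in these 15 RNAs therefore set no limit on contact.

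**Figure D4:**
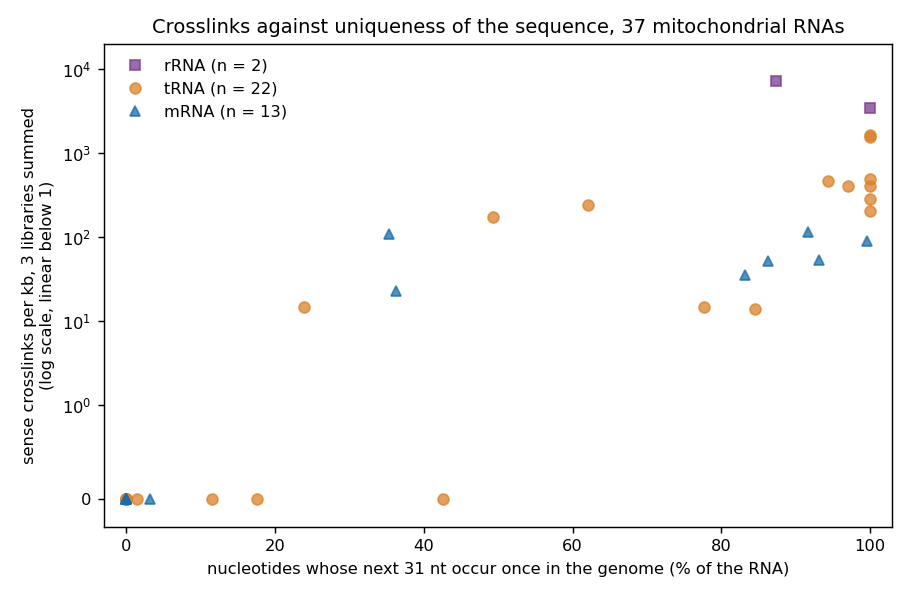
Sense crosslinks per kb summed over the 3 libraries (log scale, linear below 1) against the percentage of nucleotides whose next 31 nt occur once in the genome, one point per mitochondrial RNA. The 12 RNAs under 10% lie at 0 and the 12 at 90% or more lie above it.

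On unique nucleotides alone rRNA still exceeded mRNA, by 70.2-fold (60.6 to 81.7), 404-fold (261 to 662) and 44.4-fold (39.8 to 49.6), and tRNA exceeded mRNA by 5.07-fold, 22.5-fold and 4.82-fold. Over whole RNAs the order of the classes thus held without the copied stretches. By this measure copied sequence is a small part of the rRNAs, 201 of 2537 nt. It lies in mt-Rnr2, whose longest match is 117 nt of chromosome 10. That match is one of the runs on chromosome 10 that lie between chrM:1520 and chrM:1881. The last nucleotides of each run and the gaps between runs count as unique here. These 201 nt had 98, 340 and 213 crosslinks. On the 94 nt whose next 50 nt also occur elsewhere, replicate 2 had 55 crosslinks against 2 and 11 in replicates 1 and 3. The ratio of mt-Rnr2 to mt-Rnr1 on unique nucleotides was 1.82, 16.04 and 1.60, so replicate 2 stood apart there as well.

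Transcripts of both strands carried crosslinks, to very different extents. On chrM the plus strand had 5481, 3591 and 6789 crosslinks and the minus strand 73, 8 and 73. The plus share was 98.7% (98.4 to 99.0), 99.8% (99.6 to 99.9) and 98.9% (98.7 to 99.2). With the rRNAs left out, a choice made after seeing the data, it was 79.8% (75.3 to 83.8), 91.1% (83.2 to 96.1) and 88.3% (85.5 to 90.7). The plus strand holds 28 of the 37 genes. In the control region of 877 nt, which has no gene, the plus strand had 0 crosslinks in each library and the minus strand 1, 0 and 1, and this region too has nuclear copies, the longest of 242 nt on chromosome 12.

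Minus-strand crosslinks gathered around mt-Nd6. Of all minus-strand crosslinks, 64.4%, 37.5% and 52.1% (47 of 73, 3 of 8 and 38 of 73) lay in mt-Nd6 or opposite mt-Nd5, the gene that follows mt-Nd6 on the genome in the direction of minus-strand transcription. mt-Nd6 itself had 23.1, 1.93 and 28.9 minus-strand crosslinks per kb. The 500 nt past its annotated 3′ end had 38, 0 and 22 per kb (19, 0 and 11 crosslinks), and the next 500 nt had 10, 0 and 8 per kb. In replicates 1 and 3 the level past the annotated end was thus of the size of that in mt-Nd6 and lower further on. Opposite mt-Cytb, on the other side of mt-Nd6, the minus strand had 1, 0 and 1 crosslinks in 1144 nt.

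mt-Nd5 was the 1 mitochondrial RNA called for opposite strands in different libraries. It had 16 sense and 35 antisense crosslinks in replicate 1, 6 and 3 in replicate 2, and 43 and 23 in replicate 3. Antisense led in replicate 1 (two-sided exact binomial test, adjusted p = 0.0187) and sense in replicate 3 (exact binomial test, adjusted p = 0.0235). mt-Nd6 had 5, 3 and 15 crosslinks on the strand opposite to it, against 12, 1 and 15 on its own.

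**Figure D5:**
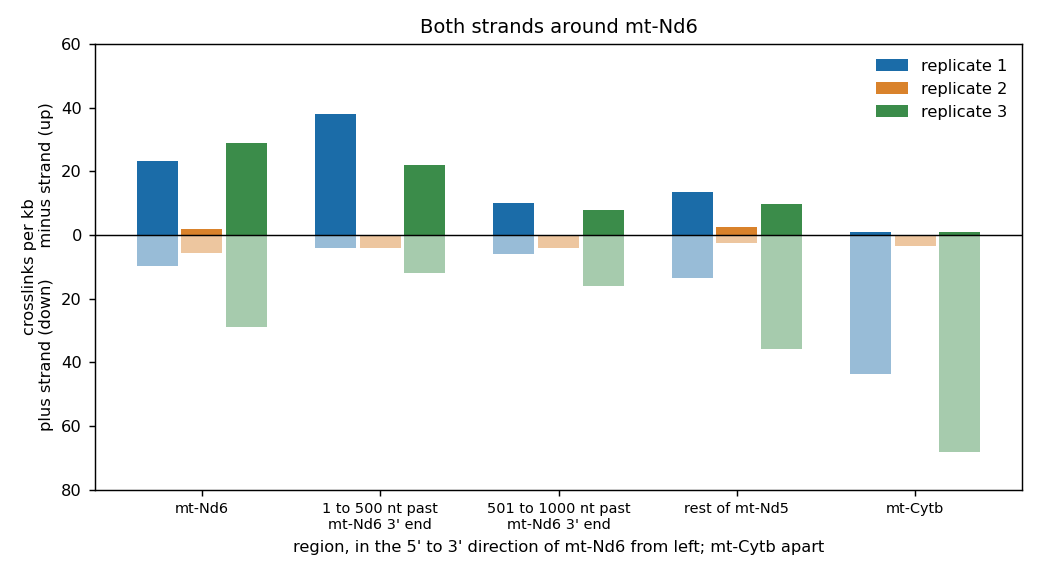
Crosslinks per kb on the minus strand (upward, full colour) and the plus strand (downward, pale) in mt-Nd6, in the stretches that follow its annotated 3′ end opposite mt-Nd5, and in mt-Cytb, for 3 libraries. The minus strand leads in the first 500 nt past mt-Nd6 in replicates 1 and 3, with 38 and 22 per kb, and is nearly empty opposite mt-Cytb.

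U was the base most over-represented at crosslinks in rRNA. On unique nucleotides it made up 25.98% of the sequence and 36.1% (34.7 to 37.4), 31.7% (30.1 to 33.4) and 40.4% (39.2 to 41.7) of crosslinks, a ratio of 1.39 ± 0.167 (SD, n = 3). A preference for U is a known property of crosslinking by ultraviolet light. In mRNA the ratio for U was 1.73, 0.988 and 1.77, with 20 crosslinks behind the value of replicate 2. In tRNA U was at 0.858, 0.335 and 1.102, with a mean of 0.765 ± 0.392, and G (1.33 ± 0.389) and A (1.17 ± 0.194) had the higher mean ratios. In rRNA G was at 1.13, 0.578 and 0.898 of its share and A at 0.809, 1.09 and 0.795, so replicate 2 was poorer in G and richer in A. The same was seen in the first 791 nt of mt-Rnr2, here with copied nucleotides included. There G took 16.2% (14.6 to 17.8), 9.21% (8.19 to 10.3) and 12.6% (11.3 to 14.01) of crosslinks and A 34.4%, 40.6% and 33.1%. Within this stretch the libraries also differed in where their crosslinks lay. With each position counted once the ratio for U in rRNA fell to 1.12.

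Purine-rich pentamers of the kind Tra2β binds were more frequent near the crosslinks of mt-Rnr1 than near its nucleotides in general, and not near those of mt-Rnr2 in every library. The pentamers searched, on the RNA strand alone and allowing them to overlap, were GAAGA together with AGAAG as well as AAGAA, with 18 copies in the rRNAs. Their centre lay within 30 nt of 30.8% of rRNA nucleotides and of 36.8% (35.5 to 38.1), 35.2% (33.6 to 36.9) and 36.1% (34.9 to 37.3) of crosslinks, a ratio of 1.17 ± 0.0259 (SD, n = 3). The pentamers cover more of mt-Rnr2 (37.9%) than of mt-Rnr1 (20.4%), and mt-Rnr2 also had more crosslinks. With the expected share weighted by the crosslinks of each rRNA, an alternative chosen after seeing the data, the ratio was 1.11, 0.946 and 1.11, a mean of 1.05 ± 0.0938. In mt-Rnr1, with 5 copies, the ratio was 1.44, 1.87 and 1.38, and in mt-Rnr2, with 13 copies, 1.04, 0.925 and 1.04. Within 10 nt the unweighted ratio in rRNA was 0.987. It was 1.19, 1.89 and 1.41 in mt-Rnr1 and 0.901, 0.871 and 0.750 in mt-Rnr2. In mRNA the pentamer ratio within 30 nt was 1.01 ± 0.356. The shorter motif GAA gave 1.03 in rRNA and 1.06 in mRNA within 30 nt. Within 10 nt GAA stood at 0.843, 0.996 and 0.934 in mt-Rnr1. These are descriptions of position within a few RNAs and carry no test.

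As lists, the nuclear mRNAs of mitochondrial proteins had lower densities per annotated exon length than the mitochondrial mRNAs. For a nuclear gene this length is the union over all its transcripts and can exceed that of its mRNA. It came to 369299 nt for the 90 genes of the first list, so the size of the difference depends on this measure. Of 90 nuclear genes for subunits of the respiratory chain and ATP synthase, 12 had at least 20 crosslinks and 1 of these, Cox6b2, was above the exon mean in all libraries, and together they had 1.401 ± 0.826 CPM per kb (SD, n = 3) against 38.4 ± 31.7 for the mitochondrial mRNAs. Cox6b2, a complex IV subunit made mainly in testis, had 11, 19 and 14 crosslinks (27.3 ± 1.36 CPM per kb), about the mean of mt-Nd5 and above every mitochondrial mRNA in replicate 2. Of 78 genes for mitochondrial ribosomal proteins 5 were tested and none was above the mean, with 0.841 ± 0.316 CPM per kb over the list. Of 36 genes for factors of mitochondrial transcription and RNA metabolism 5 were tested and 2 were above, Tfam, which packages mitochondrial DNA, with 33, 9 and 49 crosslinks, and Nsun4, which methylates mitochondrial rRNA, with 29, 30 and 50. None of these genes was called below the mean. In these lists, above the mean likewise stands for a call in every library. The 35.1% of all genes above the mean is the background for these counts, which describe the lists and were not tested as sets.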

How the data were processed

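iCLIP crosslinks were measured in 3 testis libraries. The authors processed them with the iMAPS pipeline. The submitters' processing notes name Trim Galore 0.6.7, Bowtie 1.3.1, STAR 2.7.9a and UMI-tools 1.1.2, without roles. The deposited values are counts of unique cDNAs per nucleotide and strand, not normalised or pooled. All sequence names and ends were checked against GRCm39 (mm39) and fitted it.

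From these, crosslinks were summed per gene over the union of exons (GENCODE M39) on each strand, and CPM are crosslinks scaled to counts-per-million of the library. A count of 0 allows up to 3 counts, which is 8.62, 4.84 and 6.14 CPM. Exact binomial tests doubled the smaller tail, used genes with at least 20 crosslinks in total and Benjamini-Hochberg adjustment, with a threshold of 0.05 in every library for strand and density. A nucleotide was unique if its next 31 nt occurred once in the genome on either strand. Scripts used Python 3.11.15, numpy 2.4.6, scipy 1.17.1 and matplotlib 3.10.9 and were tested on simulated data.

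Named were both rRNAs, mt-Nd6, the 5 mRNAs and 5 tRNAs with the highest mean per kb, the lowest of each class, all genes at 0, and the 3 highest windows of each rRNA. The highest window of mt-Tv was covered by its 2 stretches. Other names and the stretches were chosen after their values were seen. The members and lists were chosen with earlier results of these data known. Alternatives changed the minimum count, window, motif distance, denominator, counted positions and libraries.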

Additional observations from a re-analysis of the deposited data

How the results depend on the processing

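No paired analysis was possible because all libraries belong to 1 group. With each position counted once, the mean mitochondrial share was 0.345%, the log2 ratio of rRNA to mRNA 5.60 (mean of libraries 7.57 otherwise), the plus-strand share 97.6%, the pentamer ratio in rRNA 1.21 and the U ratio 1.12. The share was 3.09% of exonic crosslinks and the plus share outside the rRNAs 86.4%, both chosen after seeing the data. The log2 ratio of tRNA to mRNA fell from 2.98 to 1.42 ± 2.27 (SD, n = 3) without the highest window of each gene. With at least 50 crosslinks, sense was called above antisense in 1937 of all genes (2928 otherwise) and antisense above sense in 44 (87). Density was called above the mean in 7 mitochondrial RNAs (11) and below it in 2 of all genes (11). Leaving out 1 library gave 5 to 12 mitochondrial RNAs called for sense above antisense. Of all genes, 104 to 155 were then called for antisense above sense and 14 to 47 below the mean density. The highest of each came without replicate 2.

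Between libraries, replicate 2 over 3 called 1 RNA higher with exonic crosslinks as denominator, and replicate 3 over 1 called 0 higher and 2 lower with positions counted once, with genic and with exonic denominators. Windows of 10 nt carried over in 184 and 129 of all genes when chosen in replicates 1 and 2. Of 2 mitochondrial RNAs tested 1 was called with 50 nt windows chosen in replicates 2 and 3, and 1 and 0 of 3 with positions counted once in replicates 1 and 2. The window tests already hold out libraries and had no further omission. In rRNA the pentamer ratio was 0.987 within 10 nt, 1.14 over 30 nt downstream and 1.05 with the expectation weighted by rRNA, chosen after seeing the data, and the GAA ratio 1.12 downstream. In mRNA the pentamer ratio was 1.49 within 10 nt, and the GAA ratio 0.839 within 10 nt and 1.16 downstream. The cause was not tested in any of these. The mRNA values of replicate 2 rest on 22 crosslinks, although it is the deepest library.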
